A study of Mus musculus with 36 samples.

Results

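The genes described here encode subunits of mitochondrial complex III, complex IV and ATP synthase, measured in the left ventricle of mouse hearts with 1 array per sample. Members were the genes whose single symbol is Cyc1 or begins with Uqcr, Cox4i, Cox5, Cox6, Cox7, Cox8 or Atp5, each read from its brightest probe set over the 36 arrays. This gave 43 of the 18193 genes with a probe set of 1 symbol: 9 of complex III, 17 of complex IV and 17 of ATP synthase. A filter on low signal, described under the processing, was passed by 41 of the 43. Cox6b2, the testis form of a complex IV subunit, and Cox7b2 stayed below it and were not tested. Cox7c was represented only by a dim probe set (mean signal 0.955 kU, where 1 kU stands for 1000 signal units), and Cox7b had no probe set named here. Symbols are those of the GRCm38 RefSeq table, so Atp5a1 and Atp5b stand for the alpha and beta subunits now named Atp5f1a and Atp5f1b.

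Complex III passes electrons from ubiquinol to cytochrome c, complex IV passes them from cytochrome c to oxygen, and both pump protons across the inner mitochondrial membrane. ATP synthase lets the protons flow back through its membrane ring and makes ATP in its F1 head. Heart muscle depends on this chain for nearly all of its ATP, and complex IV has muscle-type isoforms there (Cox6a2, Cox7a1, Cox8b). RNA of the forms found in most tissues (Cox6a1, Cox7a2, Cox8a) was read in these hearts as well.

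The mice were of the C57black background and carried 1 of 3 floxed transgenes (HRas-v12, MKK3bE, MKK7D) under the alpha MHC promoter, which is active in heart muscle cells. A further alpha MHC transgene, Mer-Cre-Mer, made a recombinase that tamoxifen switches on. HRas-v12 is an always active Ras, MKK3bE an active kinase upstream of p38, and MKK7D an active kinase upstream of JNK. Tamoxifen (20 mg/kg a day for 3 days, from 12 weeks of age) was given to double transgenic animals and to their nontransgenic littermates, so the controls had the drug but neither transgene. Hearts were taken early, at 4 to 7 days after the first injection, or late, at 2 to 4 weeks. The 36 arrays fell into 13 titled groups of 2 or 3. Control males (3) and control females (3), which carry no time in the labels, were the reference for HRas-v12 and MKK3bE, early as well as late, and are called shared controls. HRas-v12 had 2 female and 3 male arrays early and 3 of each late. MKK3bE had 2 female arrays early, and 2 female and 3 male arrays late. MKK7D had 3 arrays and 3 controls of its own at each time, all labelled female.

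Some arrays went against their labels, and this bears on every result that uses them. The Esr1 probe set, which RNA of the estrogen receptor part of Mer-Cre-Mer could also feed, read 0.294 to 7.94 kU in the shared controls. It lay within that range in 3 transgenic arrays, HRas-v12 transgenic female early replicate 3 (0.688 kU) and HRas-v12 transgenic male late replicates 1 (2.92 kU) and 3 (1.33 kU). In MKK7D control female late replicates 8 and 9 it read 106 and 91.3 kU, within the 88.3 to 110 kU of the late MKK7D transgenic arrays. Eif2s3y, a Y-linked gene, read 6.02 kU and Xist 2.32 kU in replicate 1 of the early MKK7D controls, although its label says female. Control males had Eif2s3y at 4.33 to 4.78 kU and Xist at 1.23 to 1.67 kU, and every other array labelled female had Eif2s3y at 0.187 kU or less and Xist at 4.03 kU or more. These 6 arrays are called the arrays in doubt, and a second fit without them stands beside the results below. All 10 cardiac muscle markers were above the filter, and 7 of the 8 skeletal muscle markers and Ucp1 of brown fat were below it. The 4 atrial muscle markers were also above it, and their summed signal ran from 8.08 to 235 kU within the shared controls (Myl7 from 1.07 to 49.7 kU). The labels do not say that replicates are separate animals, so p-values measure the spread between these arrays, which may be partly technical.

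Start-site sequences were set beside the isoform pairs because the members below moved mostly together, and 2 ubiquitous isoforms stood apart. Of the 43 members, 32 had a window of 250 bases before to 50 bases after the start in the RefSeq table (GRCm38.p6). The 170 bases before the start are shown 5′ to 3′ on the gene's strand for 5 members, Cox6a1 at chr5:115348959-115349128 (minus strand), Cox8a at chr19:7217617-7217786 (minus strand), Cox8b at chr7:140900447-140900616 (minus strand), Cox7a1 at chr7:30184001-30184170 (plus strand) and Cox7a2 at chr9:79759854-79760023 (minus strand). Capitals mark a match to the NRF1 motif (GCGCATGCG, found on both strands with an overlap) and to the ETS motif (CCGGAAG, here on the opposite strand).
Cox6a1: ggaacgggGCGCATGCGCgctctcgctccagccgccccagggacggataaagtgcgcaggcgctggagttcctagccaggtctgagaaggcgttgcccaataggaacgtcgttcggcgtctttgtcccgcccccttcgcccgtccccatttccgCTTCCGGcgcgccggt
Cox8a: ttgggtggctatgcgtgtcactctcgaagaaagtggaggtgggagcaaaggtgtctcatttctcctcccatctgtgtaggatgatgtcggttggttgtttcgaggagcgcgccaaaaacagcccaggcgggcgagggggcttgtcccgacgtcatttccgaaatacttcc
Cox8b: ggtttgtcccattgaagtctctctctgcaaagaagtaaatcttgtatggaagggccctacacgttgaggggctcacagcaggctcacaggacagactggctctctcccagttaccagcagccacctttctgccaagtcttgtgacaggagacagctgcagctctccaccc
Cox7a1: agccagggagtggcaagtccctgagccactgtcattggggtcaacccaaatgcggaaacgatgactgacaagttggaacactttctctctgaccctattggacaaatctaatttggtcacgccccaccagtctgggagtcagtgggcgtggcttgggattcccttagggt
Cox7a2: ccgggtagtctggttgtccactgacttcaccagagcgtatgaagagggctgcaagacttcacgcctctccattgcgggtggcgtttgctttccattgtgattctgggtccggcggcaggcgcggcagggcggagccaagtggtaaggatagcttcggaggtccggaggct
Cox6a1 held both motifs and the other 4 stretches held neither, nor the ERR (AAGGTCA), YY1 (AAGATGGC), CRE (TGACGTCA) or TATA box letters (TATAAA). Cox8a had ETS matches across and after its start, outside the stretch shown. Over whole windows and both strands, the NRF1 letters stood in 6 of 32 members (18.8%: Uqcrc1, Uqcr11, Cox6a1, Atp5g2, Atp5k and Atp5l) and in the windows of 2.61% of 17492 protein-coding genes. The ETS letters stood in 11 members (34.4%, against 12.9%), the ERR letters in 4 (12.5%, against 4.73%), the YY1 letters in 3 (9.38%, against 3.57%), the CRE letters in 1 (3.12%, against 2.54%) and the TATA letters in 4 (12.5%, against 14.8%). None of these motifs contains another, and a match is only a match of letters.

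Early after HRas-v12 induction most subunit genes of all 3 enzymes were lower than in the shared controls, while the ubiquitous complex IV isoforms Cox6a1 and Cox8a kept their level within the spread of the arrays. Of the 41 members tested, 34 fell and none rose at an adjusted p under 0.05 (limma, Benjamini-Hochberg over 12626 genes), beside 18.7% of all genes called lower. The median log2 change was -0.50 over the members and -0.04 over all genes tested. All 9 complex III genes fell, as did 10 of 15 complex IV genes and 15 of 17 ATP synthase genes. In 16 of the 34 every one of the 5 transgenic arrays lay below all 6 controls, and in 17 others 4 of the 5 did. How many of all genes separate in this way was not counted. The early MKK7D controls, which by label had the drug but no transgene, were not part of this comparison. Some of them also lay below the shared controls, as given for Cyc1 and Atp5b below. In bulk tissue, fewer muscle cells and less RNA per muscle cell cannot be told apart.

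**Figure D1:**
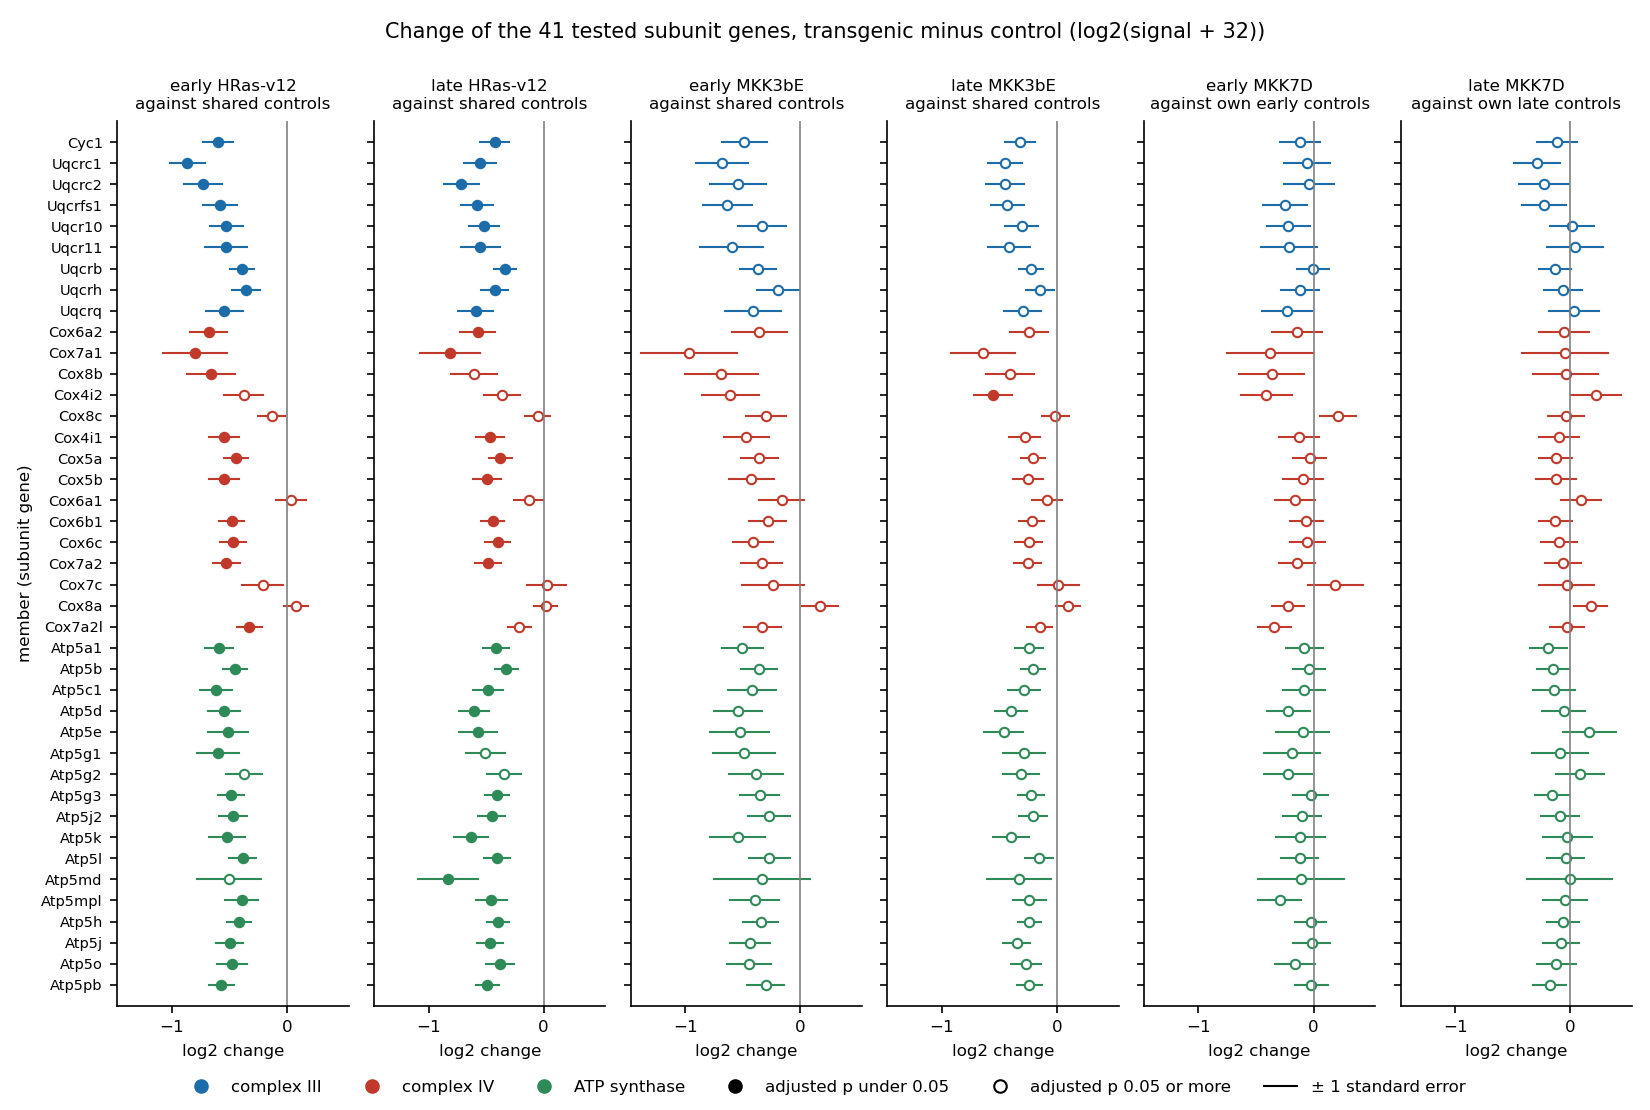
Log2 change of signal (transgenic minus control, x axis) of each of the 41 tested members (y axis) in the 6 comparisons against control, coloured by complex, with 1 standard error on each side. Filled points passed an adjusted p of 0.05: 34 members early and 32 late with HRas-v12, 1 late with MKK3bE, and none in the other 3 comparisons.

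Within complex III the core and redox subunits moved most. Uqcrc1, a core subunit, had a lowest value of 102, a median of 132 and a highest value of 155 kU in the 6 shared controls. It read 50.5, 65.3 and 54.2 kU in early HRas-v12 males and 63.0 and 111 kU in the females. Of the 5, 4 lay below every control and female replicate 3, the array with Esr1 at control level, lay among them. The difference of -0.86 on the log2 scale (SE 0.15, 1.82-fold, adjusted p = 0.000157) was the largest among the members. Uqcrc2, the other core subunit, fell by 0.73 (SE 0.16, adjusted p = 0.00149), and Uqcrfs1, the Rieske iron-sulfur protein, fell by 0.58 (SE 0.14, adjusted p = 0.00302).

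Cyc1, the cytochrome c1 that hands electrons to cytochrome c, read 118 to 144 kU in the 6 controls. It read 73.2, 82.5 and 69.5 kU in early HRas-v12 males and 80.2 and 114 kU in the females, with no overlap between the groups. It fell by 0.60 (limma, SE 0.13, 1.52-fold, adjusted p = 0.00103). The early MKK7D controls read 102, 98.6 and 125 kU for Cyc1. The 5 small complex III subunits (Uqcrb, Uqcrh, Uqcrq, Uqcr10 and Uqcr11), which surround the catalytic core, fell less, by 0.35 to 0.54.

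**Figure D2:**
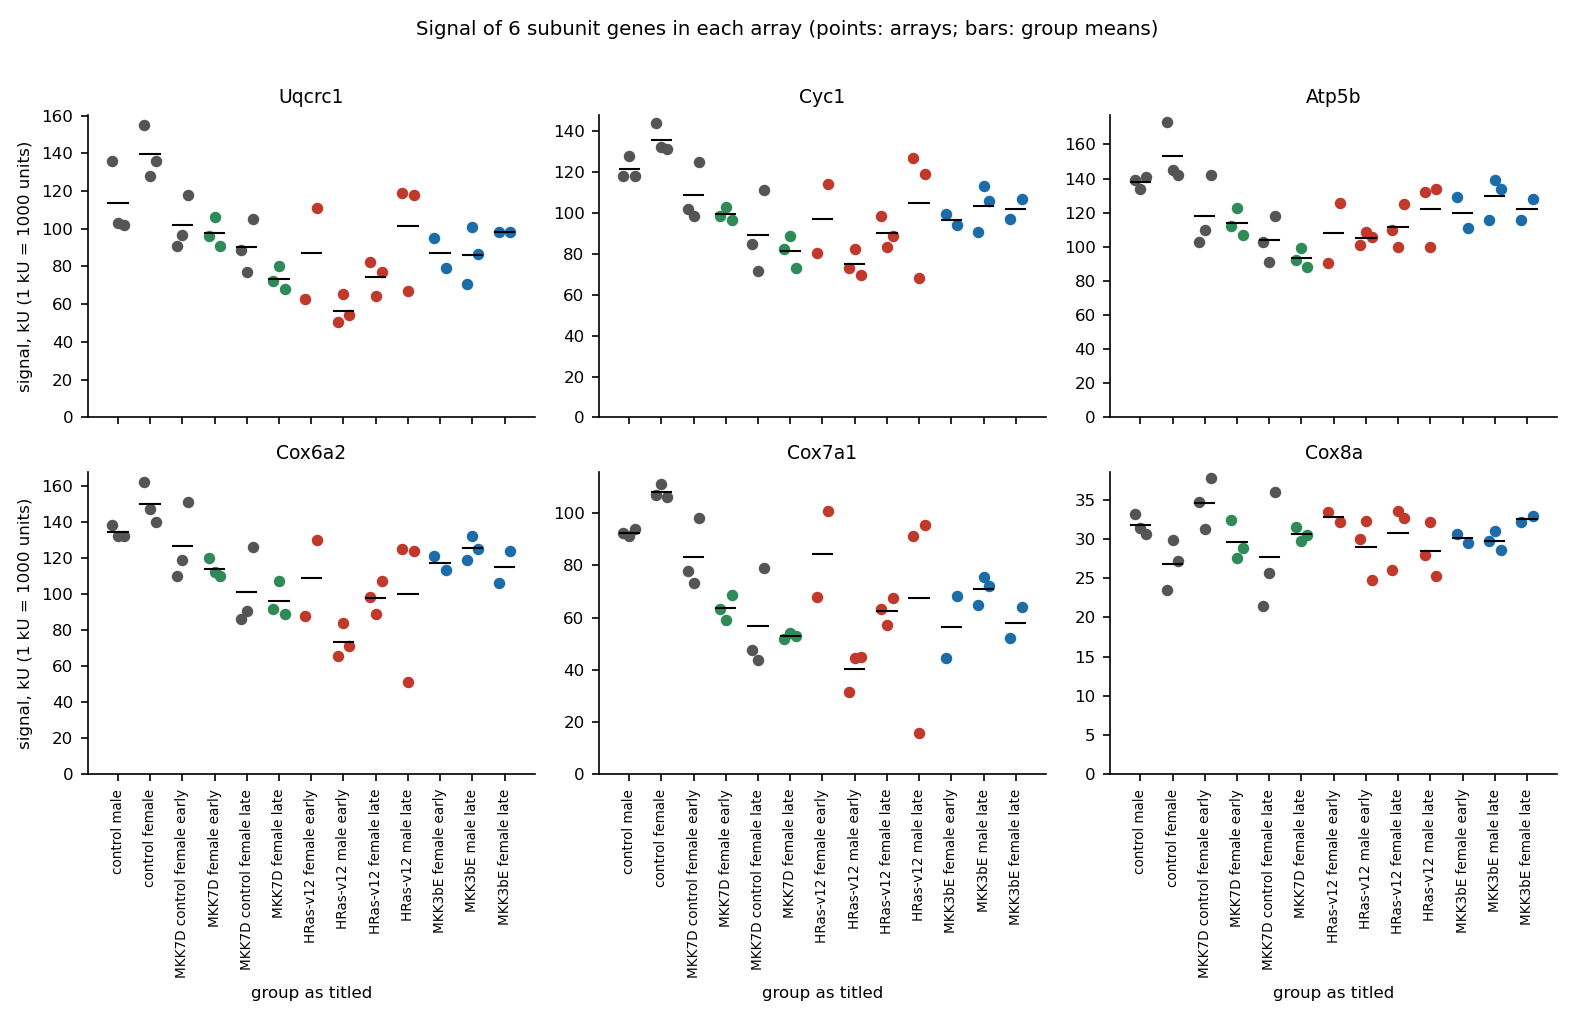
Signal in kU (y axis, from 0) of 6 members in each array (points) by titled group (x axis), with the group mean as a bar. Uqcrc1, Cyc1, Atp5b, Cox6a2 and Cox7a1 have their lowest group mean in early HRas-v12 males among the shared control and HRas-v12 groups, and Cox8a lies between 23.5 and 33.6 kU in every array of those groups.

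The complex IV genes did not all pass the test, and 2 ubiquitous isoforms stood apart from their muscle-type partners. The muscle-type genes Cox6a2, Cox7a1 and Cox8b all fell in early HRas-v12 hearts, by 0.68 (SE 0.16, adjusted p = 0.00223), 0.80 (SE 0.28, adjusted p = 0.0276) and 0.66 (SE 0.21, adjusted p = 0.017). Cox6a2 read 132 to 162 kU in the controls, 65.3, 83.7 and 70.9 kU in the transgenic males, and 87.5 and 130 kU in the females, all 5 below the controls. Cox7a1 read 91.2 to 111 kU in the controls, 31.5, 44.4 and 44.8 kU in the males, and 67.8 and 101 kU in the females. Only female replicate 3 overlapped the controls for Cox7a1.

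The ubiquitous partners of 2 of these genes were not called. Cox6a1 had a mean of 49.1 kU (SD 5.62, n = 6) in the controls and 50.4 kU (SD 6.97, n = 5) in early HRas-v12 hearts, a log2 change of 0.03 (SE 0.13, adjusted p = 0.866). Cox8a had 29.3 kU (SD 3.43, n = 6) and 30.5 kU (SD 3.47, n = 5), a change of 0.08 (SE 0.11, adjusted p = 0.604). For both genes the groups overlapped throughout. A second Cox6a1 probe set, with a mean signal of 20.7 kU, rose by 0.33 (adjusted p = 0.0272 over probe sets), and that of Cox8a changed by 0.14 (adjusted p = 0.383).

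Cox7a2, the ubiquitous partner of Cox7a1, fell by 0.53 (SE 0.12, adjusted p = 0.00133), and so did Cox4i1, the regulatory subunit form used in most tissues, by 0.55 (SE 0.13, adjusted p = 0.00237). Cox5a, Cox5b, Cox6b1 and Cox6c, which in the mouse have no muscle-type form, fell by 0.44 to 0.55. Cox4i2, the dim lung-type form, changed by -0.38 (adjusted p = 0.0792), Cox8c by -0.13 (adjusted p = 0.407) and Cox7c by -0.21 (adjusted p = 0.383). Cox7a2l, an assembly factor of the complex III and IV supercomplex that shares the Cox7a name, fell by 0.33 (SE 0.11, adjusted p = 0.0199).

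Genes of every part of ATP synthase fell. All 5 genes of the F1 head and central stalk fell, Atp5c1 by 0.61, Atp5a1 by 0.59, Atp5d by 0.55, Atp5e by 0.51 and Atp5b by 0.46. Atp5b, the catalytic beta subunit, read 134 to 173 kU in the shared controls. It read 101, 109 and 106 kU in early HRas-v12 males and 90.3 and 126 kU in the females, with no overlap (limma, 1.37-fold, adjusted p = 0.00165). The early MKK7D controls read 103, 110 and 142 kU for Atp5b, and the gap between the control sets was not tested. All 4 peripheral stalk genes fell, led by Atp5pb at -0.57 (SE 0.11, adjusted p = 0.000337). Of the c-ring genes, Atp5g1 and Atp5g3 fell, and Atp5g2 changed by -0.38 (adjusted p = 0.0643). Of the 5 small membrane subunits 4 fell, and Atp5md changed by -0.50 (SE 0.28, adjusted p = 0.172). Atpif1, which blocks ATP hydrolysis by the enzyme and is no member by its name, rose by 0.49 (SE 0.18, adjusted p = 0.0315), from 18.2 to 37.2 kU in the controls to 22.6 to 44.1 kU.

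The early fall was read from few arrays. Without HRas-v12 transgenic female early replicate 1, which leaves 1 early female array, the median change moved from -0.50 to -0.40. Without the arrays in doubt, which also leaves 1 early female array, the median was -0.62. After quantile normalization, which gives every array the same set of signals, the count of members called lower dropped from 34 to 13 and the median was -0.22. Of all 12626 genes 4187 were then called in either direction, beside 4267 without that normalization. Of the 43 members, 36 have their brightest probe set in the brightest 2% of all probe sets. Further probe sets of the members gave the same sign in 33 of 35 cases, and in 31 of 31 for the members called.

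The difference between the muscle-type and the ubiquitous isoform was also taken within each array, where a scaling factor per array largely cancels. Signals of different probe sets are not on 1 scale, so the change of the difference can be read but not its level. For Cox6a2 minus Cox6a1 the difference was 1.33 to 1.69 in the 6 shared controls. It was 0.19, 0.67 and 0.75 in early HRas-v12 males and 0.99 and 1.22 in the females, below all controls. The sex-matched shift was -0.71 (exact permutation within sex, two-sided p = 0.005, the smallest possible, adjusted p = 0.04 over 24 tests of 4 pairs in 6 comparisons).

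For Cox8b minus Cox8a the difference was 1.53 to 2.30 in the controls, 0.61, 0.89 and 1.22 in early HRas-v12 males, and 1.21 and 1.84 in the females. Female replicate 3 overlapped the controls and the other 4 lay below them. The shift was -0.74 (exact permutation p = 0.005, adjusted p = 0.04). For Cox7a1 minus Cox7a2 it was -0.27 (exact permutation p = 0.085, adjusted p = 0.264). All 3 males (-1.74, -1.35 and -1.15) lay below the controls (-0.79 to -0.61). Female replicate 1 (-0.65) lay among the controls and female replicate 3 (-0.51) above all of them. With each of the 11 arrays left out in turn the shift was -0.77 to -0.63 for Cox6a2 minus Cox6a1 and -0.90 to -0.58 for Cox8b minus Cox8a. The permutation p then stood at the smallest possible value every time, which rises to between 0.01 and 0.0167 with fewer arrays, so an adjusted p above 0.05 there says nothing about stability. Under quantile normalization, with all arrays, the shifts were -0.47 (adjusted p = 0.072) and -0.44 (adjusted p = 0.06).

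**Figure D3:**
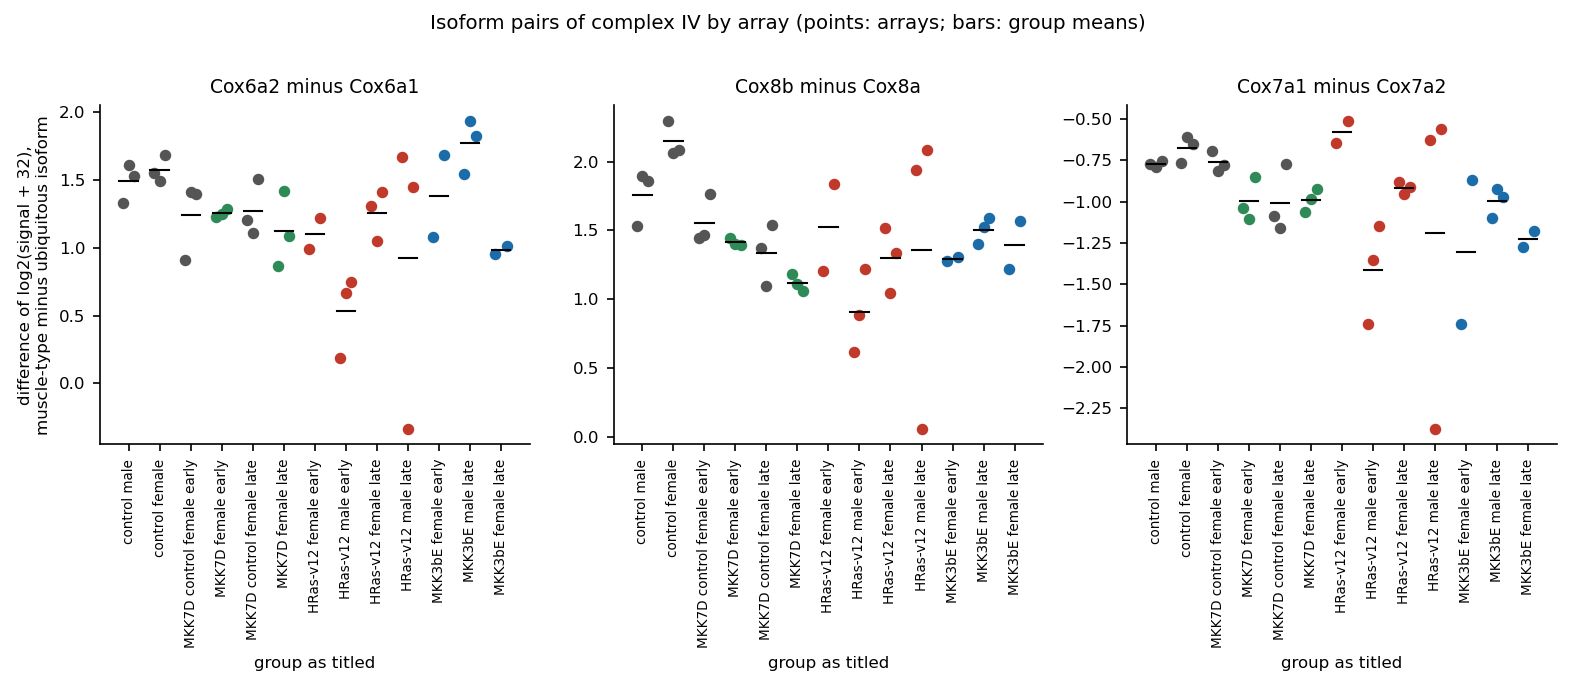
Difference of log2(signal + 32) between the muscle-type and the ubiquitous isoform (y axis) in each array (points) by titled group (x axis), with group means as bars. For Cox6a2 minus Cox6a1 the early HRas-v12 arrays lie between 0.19 and 1.22 and the shared controls between 1.33 and 1.69. HRas-v12 transgenic male late replicate 3 lies lowest of all arrays for each pair.

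Late after HRas-v12 induction the members were again lower, and the spread between arrays was wide. Of 41 members 32 fell and none rose, beside 4.66% of all genes called lower, with a median log2 change of -0.45 for the members and 0.01 for all genes. By enzyme, 9 of 9 complex III genes, 8 of 15 complex IV genes and 15 of 17 ATP synthase genes fell. The late and the early comparison share their 6 controls, so their agreement is not counted as a second result. Between late and early HRas-v12 arrays no member passed (limma, 1 at an unadjusted p under 0.05, median 0.04, beside 11.6% of all genes called in either direction). Once the arrays in doubt were dropped, the median of late minus early was 0.30. That fit rests on 1 HRas-v12 female early and 1 HRas-v12 male late, so only its size of change is given. The lack of a call with all arrays therefore does not show that the fall stayed the same over time.

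The late fall came from the 3 females and 1 male. The median of the 41 members against the sex-matched controls was -0.57, -0.64 and -0.39 in the females (replicates 2, 3 and 4) and -0.07, -0.93 and -0.07 in the males (replicates 1, 3 and 4). Males 1 and 4 lay close to the controls, whose own medians ran from -0.05 to 0.03, although Esr1 was low in the first and at 156 kU in the other. Male 3, the lowest of all 36 arrays, had Esr1 at control level. The count of members called was 5 without male replicate 3 (median -0.32) and 5 without female replicate 3 (median -0.44). It was 18 without control male replicate 1 or control female replicate 1. Without the arrays in doubt, which leaves 1 late male array, the median was -0.31. All genes called in either direction fell too, from 1202 to 132 without male replicate 3 and to 170 without female replicate 3. They fell to 526 without control male replicate 1 and to 485 without control female replicate 1. When only the late HRas-v12 and shared control arrays set the spread, 0 members and 0 of all genes were called, with 34 members at an unadjusted p under 0.05. After quantile normalization 4 members were called (median -0.15), beside 953 of all genes in either direction.

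**Figure D4:**
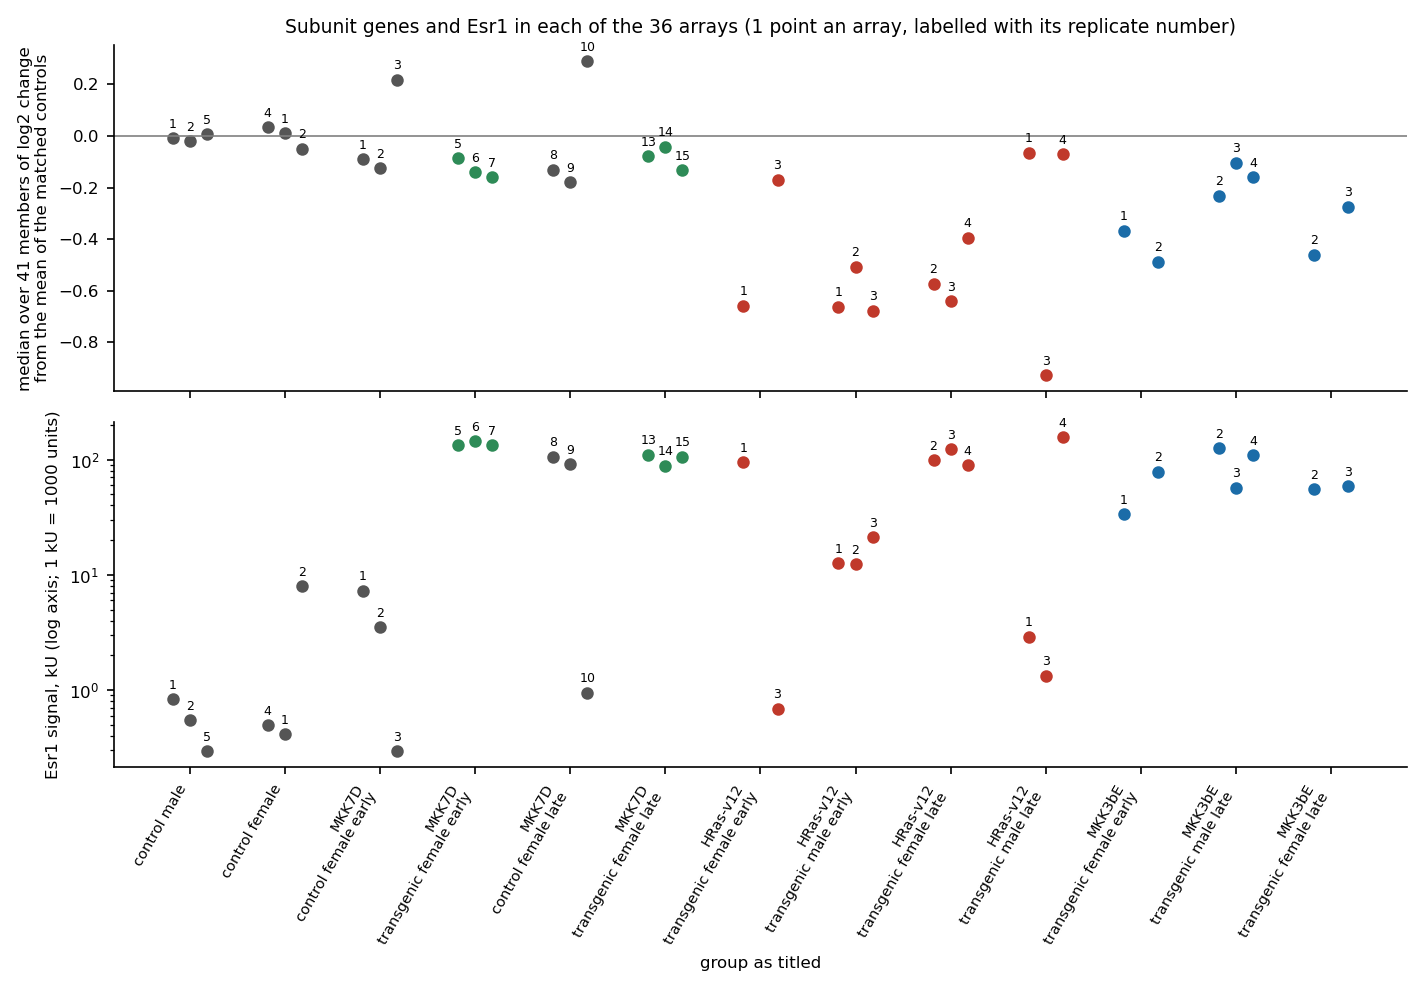
Upper panel: median over the 41 members of the log2 change from the mean of the matched controls (y axis) in each array, by titled group (x axis), labelled with replicate numbers. Lower panel: Esr1 signal in kU on a log axis. HRas-v12 male late arrays spread from -0.93 to -0.07, and in each MKK7D control group the array with the lowest Esr1 signal sits highest in the upper panel.

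Among the members called late with HRas-v12, Atp5md, a small membrane subunit of ATP synthase, changed most, by -0.83 (SE 0.26, 1.78-fold, adjusted p = 0.0446). It read 84.4 to 121 kU in the controls, 48.7, 69.5 and 80.2 kU in the females, and 105, 15.6 and 88.2 kU in the males, where males 1 and 4 overlapped the controls. Cox7a1 followed at -0.81 (SE 0.26, adjusted p = 0.0484), with 63.3, 57.1 and 67.5 kU in the females and 91.2, 15.8 and 95.3 kU in the males. Males 1 and 4 again read as the controls did.

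Uqcrc2 fell by 0.71 (SE 0.15, 1.64-fold, adjusted p = 0.0138), Uqcrc1 by 0.55 (SE 0.14, adjusted p = 0.0204) and Cyc1 by 0.43 (SE 0.12, adjusted p = 0.0305). In 10 of the 32 members all 6 transgenic arrays lay below all 6 controls, among them Cox6a2, Cox7a2, Cox6b1, Atp5d and Atp5pb. The share of all genes that separate so was not counted. Cox6a2 read 98.1, 88.6 and 107 kU in the females and 125, 51.3 and 124 kU in the males, against at least 132 kU in the controls. Its change was -0.57 (SE 0.15, adjusted p = 0.0246). Cox8b changed by -0.61 (SE 0.20, adjusted p = 0.0514), Cox6a1 by -0.13 (adjusted p = 0.509) and Cox8a by 0.02 (adjusted p = 0.927). No isoform pair passed late with HRas-v12 (shifts of -0.44, -0.62 and -0.33, adjusted p = 0.264, 0.264 and 0.452, exact permutation).

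With MKK3bE nearly all members stood below the controls at the early time, and whether members were called at either time turned on how the spread was estimated. Early, in 2 females against 3 control females, no member passed (limma), beside 2.78% of all genes called lower. Of the 41 members 23 had an unadjusted p under 0.05, beside 2949 of all 12626 genes. The change was below 0 in 40 of 41, with a median of -0.40, beside 6614 of all genes below 0. Late, 1 of 41 passed (beside 5.39% of all genes called lower), and the median was -0.25. An unadjusted p under 0.05 was found in 21 members, beside 3338 of all genes. The genes called in either direction were 790 early and 1319 late of 12626. With the spread taken from the compared groups alone 15 members were called lower early and 30 late, beside 1288 and 2262 of all genes in either direction. With array weights they were 22 and 29, beside 2054 and 2877 genes. Without the arrays in doubt, none of which is an MKK3bE array, they were 29 and 32, beside 2074 and 2581 genes. The changes themselves were the same without those arrays, at medians of -0.40 and -0.25. They were smaller after quantile normalization, at medians of -0.175 early and -0.106 late. There 0 and 1 members were called (limma, 6 and 11 at an unadjusted p under 0.05), beside 779 and 1348 genes in either direction.

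The 5 late MKK3bE arrays had member medians of -0.23, -0.10 and -0.16 in males and -0.46 and -0.27 in females, and the 2 early females -0.37 and -0.49, so all 7 lay below the 6 shared controls. The medians of the controls were taken from the mean of their own group and lie close to it by construction. Uqcrc1 read 95.3 and 79.0 kU in the early females, below all 3 control females, a change of -0.68 (SE 0.23, adjusted p = 0.0631). Cyc1 read 99.5 and 94.0 kU, also below the control females (131 to 144 kU), a change of -0.49 (adjusted p = 0.127). Cox7a1 had the largest change, -0.97 (adjusted p = 0.158), at 44.4 and 68.4 kU against 106 to 111 kU. The early MKK7D controls, which by label had the drug but no transgene, read 91.0, 96.6 and 118 kU for Uqcrc1. For Cyc1 they read 102, 98.6 and 125 kU. Replicates 1 and 2 of them lay below all shared controls for both genes, and replicate 3 lay among the shared controls. The gap between the 2 control sets was not tested.

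Late, the member called was Cox4i2, the form of subunit 4 best known from lung, at 0.764, 0.804 and 0.818 kU in males and 0.802 and 0.719 kU in females. The shared controls read 0.887 to 1.38 kU, above all 5. The change of -0.55 had an adjusted p of 0.0329, and its signal is dim. The call was lost without MKK3bE transgenic male replicate 2, without either MKK3bE female, and without any of control male replicates 2 and 5 and control female replicates 1 and 2 (adjusted p from 0.0523 to 0.122). Cox7a1 read 52.3 to 75.5 kU, below all controls, a change of -0.64 (SE 0.28, adjusted p = 0.137). Cox6a1, at -0.08 (adjusted p = 0.729), and Cox8a, at 0.10 (adjusted p = 0.602), overlapped the controls.

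The pair Cox7a1 minus Cox7a2 shifted by -0.39 late with MKK3bE (exact permutation p = 0.005, adjusted p = 0.04). The 3 males stood at -1.10, -0.92 and -0.97 and the 2 females at -1.28 and -1.18, all below the controls (-0.79 to -0.61). Cox8b minus Cox8a shifted by -0.51 (exact permutation p = 0.01, adjusted p = 0.06) and Cox6a2 minus Cox6a1 by -0.16 (adjusted p = 0.533), and Cox4i2 minus Cox4i1 by -0.27 (adjusted p = 0.327). With each of the 11 arrays left out in turn the first shift was -0.41 to -0.37, each time at the smallest p possible. In the early MKK3bE and the MKK7D comparisons the exact test cannot give a p below 0.1. Early with MKK3bE, Cox8b minus Cox8a shifted by -0.86 and Cox7a1 minus Cox7a2 by -0.63, both without overlap with the control females. Cox6a2 minus Cox6a1 shifted by -0.19 there, with overlap. Early with MKK7D, Cox7a1 minus Cox7a2 shifted by -0.23 without overlap, and the other pairs overlapped. No pair separated late with MKK7D.

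No member differed between HRas-v12 and MKK3bE at an adjusted p under 0.05 (limma), early in females (median 0.05, none at an unadjusted p under 0.05, beside 1.81% of all genes called) or late (median -0.17, 4 at an unadjusted p under 0.05, beside 3.95%). Without the arrays in doubt, which leaves 1 HRas-v12 female against 2 MKK3bE females early with the spread taken from the other groups, 1 member was called early (lower with HRas-v12). None was called late (limma, 2 at an unadjusted p under 0.05). MKK3bE late against early gave no call either (limma, 0 at an unadjusted p under 0.05, smallest adjusted p = 0.91, beside 0.00792% of all genes called). A p that misses the threshold does not show that the lines act alike on these genes.

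No member was called in MKK7D hearts in the fit with all arrays. None passed against the line's own controls, early (limma, 1 at an unadjusted p under 0.05, median -0.11, beside 0.135% of all genes called) or late (none at an unadjusted p under 0.05, median -0.06, beside 0.00%). Uqcrc1 read 90.6 to 106 kU early against 91.0 to 118 kU in its controls, and 72.4, 80.0 and 68.1 kU late against 88.9, 76.9 and 105 kU. The groups overlapped at both times. Cox7a2l gave the early member with an unadjusted p under 0.05, at -0.34. The late and the early MKK7D change differed at an adjusted p under 0.05 for no member (limma, 0 at an unadjusted p under 0.05, smallest adjusted p = 0.92, median difference 0.04, beside 0.0158% of all genes called).

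The MKK7D controls did not sit together. Against their own mean the member medians were -0.09, -0.12 and 0.22 early (replicates 1, 2 and 3) and -0.13, -0.18 and 0.29 late (replicates 8, 9 and 10). Replicate 3 and replicate 10, the highest, had Esr1 at 0.294 and 0.953 kU, and the other 4 at 3.51 to 106 kU. Cyc1 read 102, 98.6 and 125 kU in the early controls and 84.7, 71.8 and 111 kU in the late ones, with the transgenic arrays at 96.4 to 103 and 72.9 to 88.6 kU, below replicates 3 and 10. The fit without the arrays in doubt keeps 1 late control, replicate 10, whose spread is then assumed to be that of the other groups. There the late median was -0.38, 30 of 41 members had an unadjusted p under 0.05, and 2 were called lower (limma), beside 428 of 12626 genes called in either direction. Early, the fit without the arrays in doubt called no member (limma, 7 at an unadjusted p under 0.05, median -0.15, beside 123 genes). Whether the controls' makeup accounts for the small differences was not tested.

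No member was called between control males and control females (limma, none at an unadjusted p under 0.05, smallest adjusted p = 0.652, median -0.13, beside 0.00% of all genes called). Nor was any called for the early HRas-v12 change in males against that in females (none at an unadjusted p under 0.05, smallest adjusted p = 0.271, median -0.21, beside 1.10%). The member medians of single early HRas-v12 arrays were -0.66, -0.51 and -0.68 in males and -0.66 and -0.17 in females.

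Other genes of the respiratory chain were counted the same way. Of 36 complex I subunit genes, which pass electrons from NADH, 32 fell early and 27 late with HRas-v12, with medians of -0.57 and -0.54, beside 18.7% and 4.66% of all genes called lower. The same shares stand behind the next counts. Of the 4 complex II genes all fell early, led by Sdha at -0.68 and Sdhb at -0.69, and Sdhb alone late, at -0.58. Cytochrome c (Cycs) fell by 0.52 early and 0.46 late, and 5 of 6 genes of cytochrome c and of the nucleotide and phosphate carriers fell at each time. Of 34 tested assembly factors of the 3 enzymes 11 fell and 1 rose early (median -0.28), and 8 fell late.

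Regulators of mitochondrial genes were a list of 17. Early with HRas-v12, 10 fell and 1 rose, beside 18.7% of all genes called lower and 15.1% higher. In each of the late HRas-v12 and both MKK3bE comparisons 1 of 17 was called lower, beside 4.66%, 2.78% and 5.39% of all genes, so these single calls are no result about the list. In early HRas-v12 hearts the 2 named by their adjusted p were estrogen-related receptor genes. Esrrg fell by 1.19 (limma, SE 0.21, adjusted p = 0.000178) and Esrrb by 1.14 (SE 0.19, adjusted p = 0.000133). Esrra, of the same family, read 15.5 to 19.8 kU in the controls. It read 9.43, 9.95 and 12.0 kU in the males and 11.4 and 17.3 kU in the females. Esrrb read 2.73 to 4.41 kU in the controls, 0.878, 0.788 and 1.21 kU in the males, and 1.87 and 3.77 kU in the females, of which only replicate 3 overlapped the controls. Late with HRas-v12 only Ppargc1b, a coactivator, fell (-0.46, adjusted p = 0.0318), and the next was Ppara at -0.76 (adjusted p = 0.0595). Early with MKK3bE, Ppara, the fatty acid receptor, fell by 1.52 (SE 0.41, adjusted p = 0.025). Late with MKK3bE, Esrrg fell by 0.65 (adjusted p = 0.0443) and Pprc1, a coactivator of the PGC-1 family, rose by 0.57 (adjusted p = 0.0253). With MKK7D none of the 17 passed at either time (1 at an unadjusted p under 0.05 at each).

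Markers of cell types moved beside the members. The summed signal of the 10 cardiac muscle markers was 1470 to 1960 kU in the shared controls, 964 to 1390 kU early and 1040 to 1500 kU late with HRas-v12, and 1300 to 1580 kU late with MKK3bE. Of these 10 markers 10 fell early and 8 late with HRas-v12, beside 18.7% and 4.66% of all genes called lower. Their medians were -0.55 and -0.38, beside -0.50 and -0.45 for the members. With MKK3bE none was called (limma, 4 early and 2 late at an unadjusted p under 0.05), with medians of -0.31 and -0.19 and a sum of 1260 to 1540 kU early. The 8 fibroblast markers summed to 170 to 238 kU in the shared controls, 171 to 552 kU early and 167 to 563 kU late with HRas-v12. With MKK3bE they summed to 433 to 499 kU early and 259 to 374 kU late. Of the 8, 5 early and 3 late rose with HRas-v12, beside 15.1% and 4.86% of all genes called higher, and 4 at each time with MKK3bE, beside 3.48% and 5.06%. The 8 macrophage markers summed to 40.3 to 58.8 kU in the shared controls. They reached 41.1 to 150 kU early and 32.9 to 185 kU late with HRas-v12, where 5 rose early and 1 rose and 1 fell late, and 39.9 to 68.7 kU early and 55.1 to 80.3 kU late with MKK3bE, where none was called (limma, 1 at an unadjusted p under 0.05 at each time). Of 7 endothelial markers 6 fell early and 2 late with HRas-v12. Of the 4 atrial markers none was called early or late with HRas-v12 (limma, 0 and 1 at an unadjusted p under 0.05), and 1 rose late with MKK3bE. The part of these markers in the members' changes was not tested.

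**Figure D5:**
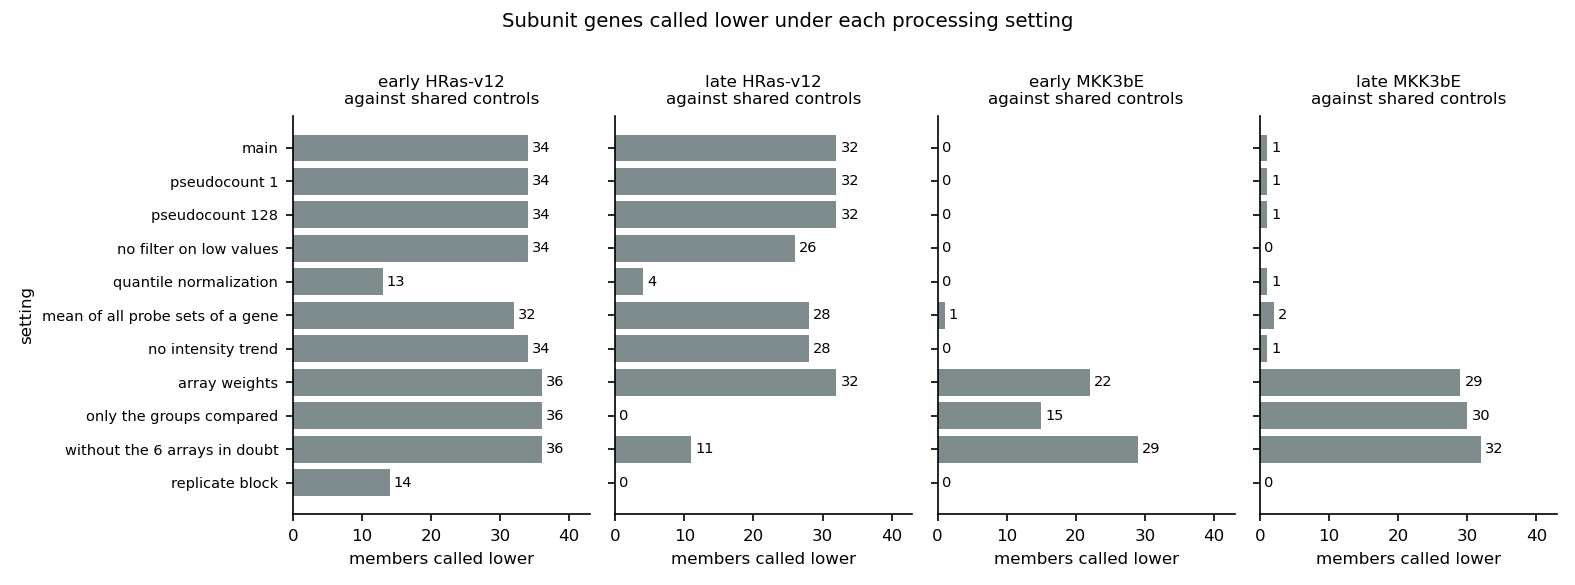
Number of members called lower (x axis) under each processing setting (y axis) in 4 comparisons. Early HRas-v12 ranged from 13 to 36 and late HRas-v12 from 0 to 32, while early and late MKK3bE ranged from 0 to 29 and from 0 to 32.

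The HRas-v12 counts dropped to 13 and 4 under quantile normalization, and those of MKK3bE rose to 29 and 32 once the arrays in doubt were left out of the pooled spread. In the settings plotted, every member called in these 4 comparisons was lower.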

How the data were processed

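The authors deposited 1 linear intensity per probe set of an Affymetrix whole-genome mouse array. These were computed with MAS5, per the submitters' processing notes (version not given in the sources used here), and scaled to a trimmed mean of 2500 (2% of probe sets trimmed at each end). Of 45101 probe sets, 34945 carry 1 gene symbol, 932 several and 9224 none, and 34741 symbols were updated through the gene number. Values were taken as log2(signal + 32). The upper 60% of probe sets by mean log2 value (27022, a mean of at least 8.802) were kept, and the brightest per gene gave 12626 genes. Fold changes on this scale understate the change of dim genes.

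One model with 13 group means over all 36 arrays was fitted in limma 3.58.1 under R 4.3.3 with an intensity trend (23 residual and 4.61 prior degrees of freedom). Adjusted p-values are Benjamini-Hochberg values from limma over the 12626 genes in each of 13 comparisons, called under 0.05. With both sexes in a comparison, the female and the male difference were averaged. Isoform pairs were compared by exact permutation within sex. The fit was tested on simulated data. Precision is limited by the number of arrays.

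Arrays were grouped by title. The members, gene lists, marker lists and tests were chosen with earlier results of these data known. Named members are the catalytic or core subunits, the isoform pairs, Cox7a2l, Atpif1, and the largest fall and rise in each comparison against control. Of the other lists, up to 2 genes with the smallest adjusted p per comparison are named. Alternatives were the pseudocount, the filter, quantile normalization, the mean over probe sets, no trend, array weights, the compared groups alone, the arrays in doubt left out, a replicate block, and each array left out in turn. No protein sequences were used here, and start-site windows were read by a text search of the RefSeq table.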

Additional observations from a re-analysis of the deposited data

Results flagged for a closer look

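In 5 cases every array of one group moved up against its controls' mean and every array of another moved down, and none of these differences was itself tested. Groups of 2 or 3 arrays were not examined for single outlying arrays. Cox8a changed by 0.29 in HRas-v12 transgenic female early arrays and by -0.22 in MKK7D transgenic female early arrays, a gap of 0.52 on the log2 scale. Against the same MKK7D arrays, Cox8a in MKK3bE transgenic female early arrays (0.17) gave a gap of 0.39. Cox4i2 changed by -0.46 in MKK3bE transgenic female late arrays and by 0.22 in MKK7D transgenic female late arrays, a gap of -0.69. Cox6a1 changed by 0.20 in MKK3bE transgenic female late arrays and by -0.38 in the males, a gap of 0.58. Cox8a changed by 0.29 and -0.09 in the same 2 groups, a gap of 0.38. The first and second cases share their MKK7D arrays, and the 2 groups in each case have 2 and 3 arrays. The MKK7D changes in the first 3 cases were taken from control means that include arrays in doubt. All named members were searched over several pairs of groups. How many such cases would arise without any difference was not worked out, so the 5 cases are no evidence of a difference.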

How the results depend on the processing

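Counts are members called lower unless said otherwise, and causes were not tested except where stated. A smaller or a larger pseudocount and no intensity trend kept every count within 1.5 times of the main one. No filter gave 0 late with MKK3bE (15 at an unadjusted p under 0.05). Quantile normalization, which by construction ties the brightest signals of all arrays together, gave 13 early and 4 late with HRas-v12, 1 member higher late against early, 0 isoform pairs against 3, and Atp5b late with HRas-v12 turned from -0.32 to 0.001. The mean over probe sets gave 1 early and 2 late with MKK3bE. Array weights gave 22 early and 29 late with MKK3bE, 1 early with MKK7D, 3 higher for late against early HRas-v12 and 1 higher for the late against early MKK7D change. The compared groups alone gave 0 late with HRas-v12 (0 of all genes as well), and 15 early and 30 late with MKK3bE. Without the arrays in doubt the counts were 11 late with HRas-v12, 29 early and 32 late with MKK3bE, 2 late with MKK7D, 22 higher for late against early HRas-v12, 1 for HRas-v12 against MKK3bE early and 0 isoform pairs (smallest adjusted p = 0.075, with fewer permutations possible).

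Leaving out 1 array gave 9 to 35 early and 5 to 35 late with HRas-v12, 0 to 2 late with MKK3bE, 0 to 6 for late against early HRas-v12 (6 higher without HRas-v12 transgenic male late replicate 3) and 0 to 3 isoform pairs (with an array of their groups left out, the called pairs stood at the smallest possible p, which rises with fewer arrays); the remaining comparisons stayed at 0. Replicate numbers did not pair the arrays: correlations of same-numbered deviations ran from -0.06 to 0.07 over 10 pairs. With the replicate block the counts were 14 early and 0 late with HRas-v12 and 0 late with MKK3bE (limma, 25, 31 and 3 members at an unadjusted p under 0.05). Late with HRas-v12 that fit called 0 of all genes.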
